A study of Mus musculus with 12 samples.

Results

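Cytochrome c oxidase, complex IV of the respiratory chain, passes electrons to oxygen in the inner mitochondrial membrane, and the beating heart depends on it for most of its ATP. Its catalytic core works only after copper and heme A have been inserted, a task of dedicated assembly factors that are not part of the finished enzyme. The genes described here are Sco2 and 7 further factors of this kind, 8 genes of 24704 with a symbol on the array, and each had 1 probe set. Cox17 passes on copper in the space between the mitochondrial membranes, Sco1 and Sco2 hand it to 1 copper centre of the enzyme, and Cox11 serves the other. Cox10 and Cox15 make heme A from heme, and Coa3 and Surf1 act early, around the first catalytic subunit. Inherited loss of SCO2 is known as a cause of fatal cardiomyopathy in infants. Sco2 was selected because its signal fell with isoprenaline (Iso), so its differences between treated and untreated cells are given as a description without a test, and the same was done for the other 7 genes.

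Ventricular myocytes were taken from 6 adult mice by enzymatic perfusion of the heart and cultured for 24 h. The mice were either wild type (WT) or double knockouts (DKO) lacking the delta and gamma forms of CaMKII, a calcium/calmodulin-dependent protein kinase active in heart muscle. Cells of each mouse were left untreated or received 100 nM Iso, an agonist of beta-adrenergic receptors, which gave 4 groups of 3 arrays: untreated WT, Iso-treated WT, untreated DKO and Iso-treated DKO. Each group thus holds 3 animals, and so small a number limits how precise the values are. The labels do not say how the deletions were made or whether they were restricted to myocytes. Signals are log2 values, so a difference of 1 is a doubling of signal.

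As to the arrays as a whole, the 9 ventricular myocyte markers averaged 12.37 to 12.70 on the 12 arrays, where the array medians were 3.32. Camk2g, 1 of the targeted genes, read 3.57 to 4.20 on the DKO arrays and 4.78 to 5.80 on the WT arrays; Camk2d, the other, read 7.36 to 7.98 and 7.94 to 8.42, ranges that overlap. Untreated DKO array 3 stood apart, with a median correlation with the other arrays of 0.956, against 0.984 to 0.988 for the rest. Several results are also given without it, whereas the correlations with Sco2 and the spans of genes ranked by them are given only with it.

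Promoter sequences are shown for the 3 genes, Sco2, Cox10 and Coa3, whose signals were lower on every Iso-treated array than on every untreated array in both genotypes. Each is the 250 bases before the annotated start, 5′ to 3′ on the strand of the gene, from RefSeq on GRCm38.p6. The windows are chr15:89373892-89374141 on the minus strand for Sco2, chr11:64079473-64079722 on the minus strand for Cox10 and chr11:101278949-101279198 on the minus strand for Coa3. Capitals mark matches to any of 4 motifs on either strand: CACGTG (1 form of the E-box), CCGGAA (core of ETS factor sites), TGACG (part of the cAMP response element, CRE, bound by CREB) and TGCGCA (core of NRF1 sites). Other forms of the E-box were not searched or marked, and E-box below means CACGTG only.
Sco2: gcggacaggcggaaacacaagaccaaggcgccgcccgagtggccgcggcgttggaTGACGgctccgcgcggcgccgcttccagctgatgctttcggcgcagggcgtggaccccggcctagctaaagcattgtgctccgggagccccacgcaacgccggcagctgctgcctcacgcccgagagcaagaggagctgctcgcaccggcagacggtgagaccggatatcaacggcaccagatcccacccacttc
Cox10: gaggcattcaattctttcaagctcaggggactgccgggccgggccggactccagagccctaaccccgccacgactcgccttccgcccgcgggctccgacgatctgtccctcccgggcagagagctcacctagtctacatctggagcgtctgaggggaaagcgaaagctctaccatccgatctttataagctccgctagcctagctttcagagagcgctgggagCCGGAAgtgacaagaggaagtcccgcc
Coa3: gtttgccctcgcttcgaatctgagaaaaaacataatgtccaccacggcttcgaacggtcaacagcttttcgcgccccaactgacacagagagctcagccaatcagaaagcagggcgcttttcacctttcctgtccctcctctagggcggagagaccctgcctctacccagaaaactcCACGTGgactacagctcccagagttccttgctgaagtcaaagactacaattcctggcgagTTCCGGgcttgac
No motif of the 4 occurs in all 3 windows. Sco2 holds the CRE part, Cox10 the ETS core, and Coa3 the ETS core and the E-box. Of all 32851 promoter windows of this length, 17.8% hold the CRE part, 12% the ETS core, 6.02% the E-box and 6.43% the NRF1 core. Of the 7 members in the promoter table (Cox17 is not among them), 4 hold the ETS core, 2 the CRE part, 1 the E-box and 0 the NRF1 core; a match is a description of these letters and not of binding.

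Of the copper chaperones, Sco2 had lower signal with Iso in both genotypes. In WT, Sco2 (Entrez gene 100126824) read 9.45, 9.33 and 9.59 on untreated arrays, whereas treated arrays gave 8.68, 8.86 and 9.15. In DKO, untreated arrays read 9.84, 9.58 and 10.23, while Iso-treated ones read 8.71, 8.23 and 8.70. Every treated array thus lay below every untreated array, within each genotype and across both. The difference, Iso minus untreated, was -0.56 (SE 0.19) in WT and -1.34 (SE 0.19) in DKO, which is a signal 1.47 and 2.53 times lower with Iso. In this measure of bulk RNA, fewer cells of a type and less RNA per cell cannot be told apart.

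The same Sco2 values can also be read by mouse. Since every treated array lay below every untreated one, a fall in each mouse was fixed in advance and adds no support. Within the DKO mice the differences were -1.13, -1.36 and -1.53, and within the WT mice -0.77, -0.47 and -0.44, so that all 6 mice had lower Sco2 signal with Iso and the 3 DKO values lay beyond the 3 WT values. The Iso difference in DKO minus that in WT was -0.78 (SE 0.27), not tested here because Sco2 was chosen on its Iso contrast. Of the 13737 genes kept, 10 had a larger fall in DKO and 118 a larger fall in WT. Without untreated DKO array 3, which had the highest Sco2 signal of all, the difference in DKO was -1.16 (SE 0.18).

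In the order of group means, Sco2 was highest in untreated DKO (9.88 ± 0.33, SD, n = 3), followed by untreated WT (9.46 ± 0.13), Iso-treated WT (8.90 ± 0.24) and Iso-treated DKO (8.55 ± 0.28). Neighbouring genotypes overlapped: the lowest untreated DKO array, at 9.58, lay just under the highest untreated WT array, at 9.59, and the highest Iso-treated DKO array, at 8.71, lay above the lowest Iso-treated WT array, at 8.68. DKO minus WT, the difference was 0.43 (SE 0.19) without Iso and -0.35 (SE 0.19) with Iso. Without untreated DKO array 3 the first of these was 0.25 (SE 0.18).

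**Figure D1:**
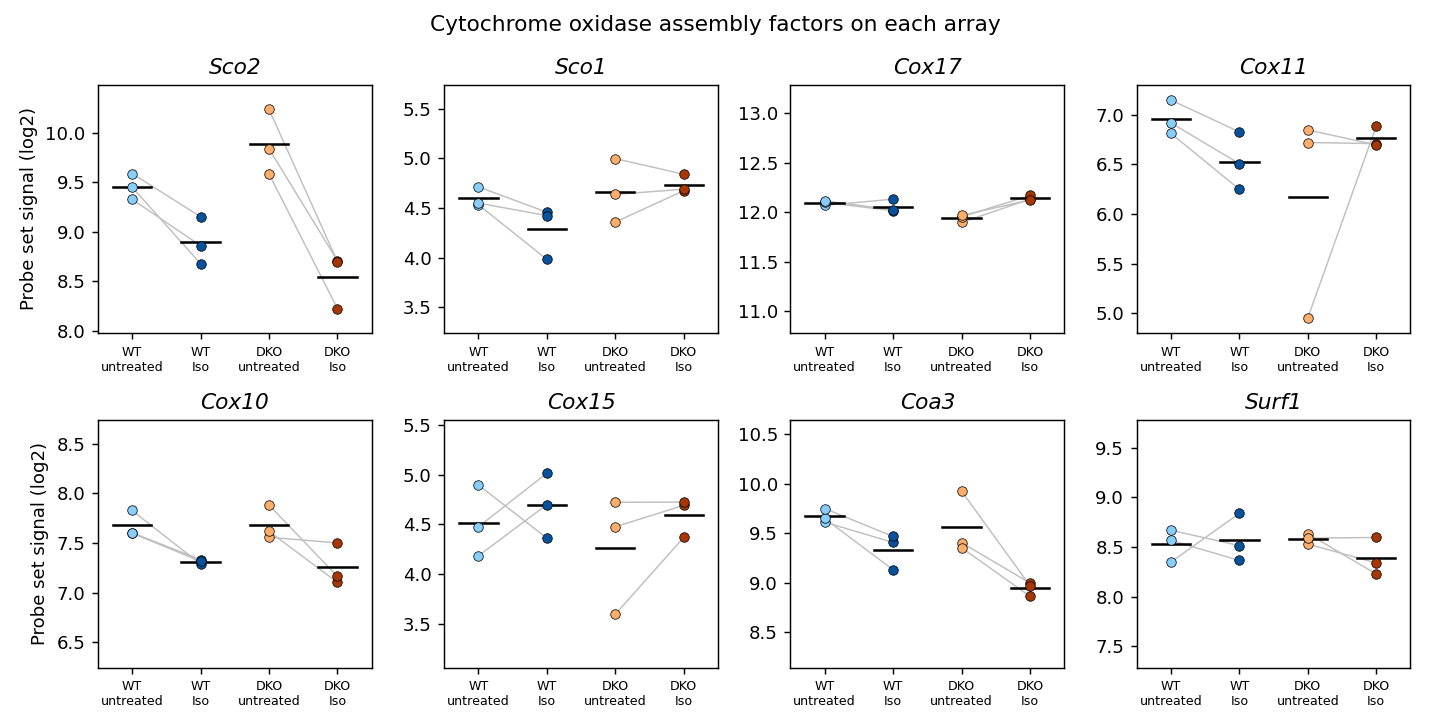
Probe set signal (log2, vertical axis) of the 8 assembly factors on each of the 12 arrays, grouped by genotype and treatment; each axis spans 2.5 log2 units, points are arrays, black bars are group means and grey lines join arrays of the same mouse. Sco2, Cox10 and Coa3 lie lower on all Iso-treated arrays than on all untreated arrays of their genotype, and Cox11 and Cox15 have 1 low array, untreated DKO array 3, at 4.95 and 3.59.

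Sco1, the paralogue of Sco2 that works at the same copper centre, did not share this pattern in both genotypes. It read 4.71, 4.53 and 4.55 in untreated WT and 4.46, 3.98 and 4.42 in Iso-treated WT, groups that do not overlap. In DKO the untreated arrays gave 5.00, 4.36 and 4.64 and the treated ones 4.84, 4.67 and 4.69, groups that do overlap. The difference with Iso was -0.31 (SE 0.17) in WT and 0.07 (SE 0.17) in DKO. It was -0.16 in WT without Iso-treated WT array 2, the lowest reading, and -0.08 in DKO without untreated DKO array 2.

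Cox17, which supplies copper to Sco1, Sco2 and Cox11, was the least variable of the 8, with all arrays between 11.90 and 12.17. Its untreated DKO arrays gave 11.90, 11.95 and 11.97. Iso-treated DKO arrays gave 12.13, 12.17 and 12.12 and so lay above them, by 0.20 (SE 0.10). In WT the arrays overlapped, at 12.07, 12.10 and 12.12 without Iso and 12.13, 12.02 and 12.02 with it, a difference of -0.04 (SE 0.10). Of all genes kept, 10.8% had every Iso-treated DKO array above every untreated one, and 1.09% did so in both genotypes, where the count of members was 0.

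Cox11, the copper chaperone of the other centre, read 7.15, 6.92 and 6.81 in untreated WT and 6.83, 6.51 and 6.25 in Iso-treated WT, and was lower with Iso in each of the 3 WT mice. The untreated DKO arrays gave 6.72, 6.85 and 4.95, and treatment gave 6.71, 6.70 and 6.89. The value of 4.95, on untreated DKO array 3, was more than 1 log2 unit below every other array and set the group difference. With Iso, Cox11 differed by -0.43 (SE 0.38) in WT and by 0.59 (SE 0.38) in DKO, and the latter became -0.02 (SE 0.17) without that array. The DKO difference minus the WT difference was 1.02 (SE 0.53), and 0.41 (SE 0.22) without it.

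The heme A steps differed from each other. Cox10, which attaches the farnesyl tail to heme, read 7.83, 7.60 and 7.60 in untreated WT and 7.29, 7.33 and 7.32 in Iso-treated WT. The DKO readings were 7.56, 7.62 and 7.88 when untreated, then 7.50, 7.10 and 7.16 after Iso. Treated arrays lay below untreated arrays in both genotypes, by -0.37 (SE 0.14) in WT and -0.43 (SE 0.14) in DKO. The DKO difference was -0.33 without untreated DKO array 3, and mouse 1 contributed little of it, at -0.058 against -0.51 and -0.72 in the other 2 mice.

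Cox15, which completes heme A, showed no such separation. It read 4.18, 4.47 and 4.90 in untreated WT against 4.70, 5.02 and 4.36 with Iso, and 4.48, 4.72 and 3.59 in untreated DKO against 4.69, 4.72 and 4.37 with Iso. All of these groups overlapped. The differences were 0.17 (SE 0.28) in WT and 0.33 (SE 0.28) in DKO, and the DKO value was -0.0037 without untreated DKO array 3.

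Of the early factors, Coa3 lay lower with Iso and Surf1 did not separate. Coa3, which stabilises the newly made first subunit, read 9.61, 9.65 and 9.75 in untreated WT and 9.41, 9.13 and 9.47 in Iso-treated WT, a step also seen in DKO, from 9.40, 9.35 and 9.92 down to 9.00, 8.86 and 8.97. Treated arrays were below untreated arrays in both genotypes, by -0.33 (SE 0.16) and -0.62 (SE 0.16). Without untreated DKO array 3 the DKO difference was -0.43. Surf1, whose loss causes Leigh syndrome in humans, ranged from 8.23 to 8.84 and differed by 0.04 (SE 0.15) in WT and -0.20 (SE 0.15) in DKO. The WT value was -0.09 without Iso-treated WT array 3 and -0.05 without untreated WT array 3.

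Counted over the 8 genes, 3 lay lower on every Iso-treated array than on every untreated array in both genotypes, 4 did so in WT (Sco1 besides) and 3 in DKO. The share of all 13737 genes kept was 1.25% for both genotypes, 8.42% for WT and 10.7% for DKO. Without untreated DKO array 3 the count for both genotypes was again 3, against 1.8% of all genes. Leaving out an array cannot lower such a count, so this adds no support. These counts use the contrast by which Sco2 was chosen and are given as a description. The median Iso difference of the 8 genes was -0.32 in WT and -0.06 in DKO, beside -0.01 and 0.01 over all genes kept. The DKO median was -0.11 without untreated DKO array 3, with 6 of 8 below 0 in place of 4.

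**Figure D2:**
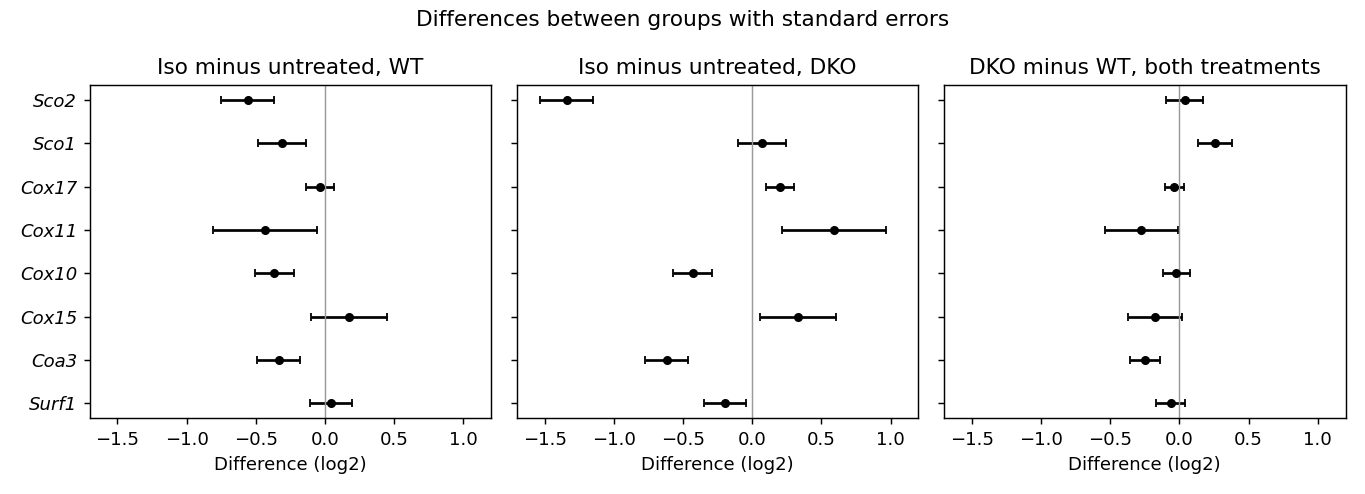
Difference in log2 signal (horizontal axis) of each assembly factor for Iso minus untreated in WT, Iso minus untreated in DKO, and DKO minus WT over both treatments; points are differences of group means and bars are 1 standard error from limma. Sco2 lies at -0.56 and -1.34 in the Iso panels and at 0.04 in the genotype panel.

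The genotype, averaged over both treatments, is a comparison that does not use the Iso contrast, and it was tested. No member passed: Sco2 differed by 0.04 (SE 0.14, 95% interval -0.25 to 0.33, limma adjusted p = 0.957), with DKO arrays averaging 9.22 and WT arrays 9.18. The lowest adjusted p-values among the members were those of Coa3, at -0.25 (SE 0.11, interval -0.49 to -0.01, limma adjusted p = 0.447), and for Sco1, at 0.26 (SE 0.12, interval -0.01 to 0.52, limma adjusted p = 0.483). The other 5 differences ranged from -0.28 for Cox11 to -0.02 for Cox10. Of the 8 genes 0 were called, where limma called 0.546% of all genes kept. At an unadjusted p under 0.05 there was 1 of 8, Coa3, beside 10.7% of all genes, a share near the background. For Cox11 the interval ran from -0.85 to 0.30, and without untreated DKO array 3 the difference was 0.03, so its direction rests on that array.

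Within a single treatment, 0 of the 7 members other than Sco2 were called by limma, either without Iso (0.204% of all genes called) or with Iso (0.306%). At an unadjusted p under 0.05 there were 0 without Iso, beside 13.8% of all genes, and 2 with Iso, beside 7.91%. Those were Sco1, higher in DKO by 0.45 (SE 0.17, limma adjusted p = 0.505), and Coa3, lower in DKO by 0.39 on the log2 scale, at -0.39 (SE 0.16, limma adjusted p = 0.538). These comparisons share arrays with the Iso contrasts.

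The wider machinery of complex IV was read from lists of genes. Over all genes kept, limma called 0.0218% for Iso in WT and 0.051% in DKO, and 0.0146% when the WT and DKO differences were compared. At an unadjusted p under 0.05 the shares were 6.70% in WT and 18.4% in DKO, the background for the counts of each list. Of 22 other complex IV assembly factors kept, limma called 0 in each of the comparisons. In DKO 14 of the 22 lay below 0 with Iso (median -0.12), with 7 at an unadjusted p under 0.05, and in WT 15 (median -0.05), with 1. The 2 with the largest difference in DKO were Fdx2, a mitochondrial ferredoxin used in heme A synthesis, at -1.23 (SE 0.27), and Coa4, a twin-cysteine protein, at -0.85 (SE 0.19). Without untreated DKO array 3 these were -1.18 and -0.71. Fdx2 was a dim probe set, with means of 4.09 in untreated DKO and 2.86 to 3.09 in the other groups. It passed the filter on dim probe sets only through untreated DKO, so a lower value elsewhere was built in. Leaving out Fdx2 and Tmem177, which also passed only with its highest group, 6 of 20 in DKO and 1 of 20 in WT had an unadjusted p under 0.05. Smim20, a partner of the early assembly intermediate, lay lower on all treated arrays in both genotypes, by -0.25 (SE 0.12) and -0.26 (SE 0.12). It was 1 of 22 with that pattern, beside 1.25% of all genes kept. The Smim20 difference in DKO was -0.18 without untreated DKO array 3.

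Of 16 structural subunits of the enzyme kept, 13 lay below 0 with Iso in DKO (median -0.13) and 7 in WT (median 0.00). The DKO count was 12 (median -0.08) without untreated DKO array 3. Limma called 0 in each comparison, and 2 in DKO and 0 in WT had an unadjusted p under 0.05. Cox4i2, an alternative form of subunit 4, and Cox6b2, an alternative form of subunit 6b, had the largest differences in DKO, at -0.54 (SE 0.18) and -0.54 (SE 0.19). Without untreated DKO array 3 these were -0.40 and -0.30. Cox4i2 was dim, with means of 3.66 in untreated DKO and 3.04 to 3.31 in the other groups, and it too passed the filter only with untreated DKO. Leaving out Cox4i2, 1 of 15 in DKO and 0 of 15 in WT had an unadjusted p under 0.05. Of the 16, 1 lay lower on all treated arrays in both genotypes, beside 1.25% of all genes kept. This was Cox6a1, by -0.25 (SE 0.14) and -0.31 (SE 0.14). Its DKO difference was -0.15 without untreated DKO array 3.

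Assembly factors of the other respiratory complexes, 26 genes, had medians of -0.14 in WT (20 below 0) and 0.08 in DKO (12 below 0), and the DKO median was -0.02 (16 below 0) without untreated DKO array 3. Limma called 0 of them, with 3 and 7 at an unadjusted p under 0.05. Ndufaf1 of complex I differed in DKO by 0.96 (SE 0.44) and Uqcc2 of complex III by -0.75 (SE 0.22); without that array the values were 0.21 and -0.46. Of the 26, Bcs1l and Ndufaf3 lay lower on all treated arrays in both genotypes, beside 1.25% of all genes kept.

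Copper and heme supply were read in the same way. Of 11 copper handling genes limma called 0, with 2 in WT and 3 in DKO at an unadjusted p under 0.05, and the medians were -0.02 and 0.00. Ccs, the copper chaperone of superoxide dismutase, lay lower on all treated arrays, by -0.54 (SE 0.20) in WT and -0.70 (SE 0.20) in DKO, as did Atox1, which carries copper to the secretory pathway, by -0.09 (SE 0.13) and -0.45 (SE 0.13). These 2 of 11 stand beside 1.25% of all genes kept with that pattern in both genotypes. In DKO the Ccs difference was -0.47 without untreated DKO array 3. Of 8 heme synthesis genes, 4 lay below 0 with Iso in WT (median -0.02) and 6 in DKO (median -0.27). Without untreated DKO array 3 the DKO median was -0.21. At an unadjusted p under 0.05 there were 0 in WT and 5 in DKO. Cpox rose with Iso in DKO, by 1.26 (SE 0.16), the 1 call by limma in this list (adjusted p = 0.0190). In WT it differed by -0.05 (SE 0.16). Alad differed by -0.84 (SE 0.23) in DKO, or -0.57 without that array, and by 0.48 (SE 0.23) in WT. Fech lay higher on all treated arrays in both genotypes, by 0.21 (SE 0.12) and 0.27 (SE 0.12), beside 1.09% of all genes kept. The Cpox difference in DKO was 1.17 to 1.35 with each array left out in turn. Its call was lost in 4 of these 12 fits (without untreated DKO 1, Iso-treated DKO 1 or 2, or untreated WT 3). The limma adjusted p was up to 0.154. The remaining lists gave 0 calls. Medians for 10 regulators of mitochondrial biogenesis were 0.03 in WT and 0.04 in DKO, where Polrmt, the mitochondrial RNA polymerase, differed by -0.62 (SE 0.18) and -0.75 (SE 0.18) and the coactivator Ppargc1b by 0.47 (SE 0.18) and 0.78 (SE 0.18). Sco2 has been described as a target of p53, and 12 other p53 targets had medians of -0.04 in WT and 0.10 in DKO, or 0.06 in DKO without untreated DKO array 3; Phlda3 differed by -0.69 (SE 0.28) in DKO and Ccng1 by 0.53 (SE 0.23), values that were -0.29 and 0.18 without untreated DKO array 3.

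Over these 7 lists, 105 genes in all, limma called 0 in each genotype comparison. At an unadjusted p under 0.05 there were 17 for the genotype averaged over treatments, 25 without Iso and 15 with Iso. The shares over all genes kept were 10.7%, 13.8% and 7.91%. Among the 105 genes, Fdx2, Tmem177 and Cox4i2 passed the filter only with untreated DKO, so a higher value in that group was built in. Counts without these genes were not made.

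**Figure D3:**
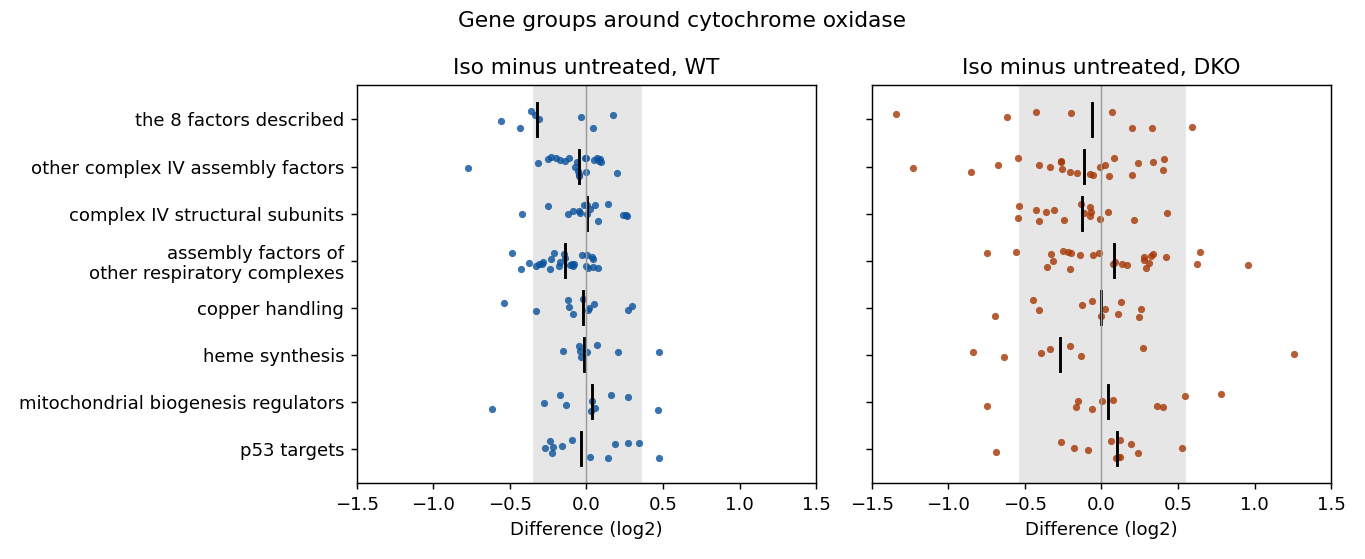
Difference in log2 signal with Iso (horizontal axis) for each gene kept in 8 groups (rows), in WT and in DKO; points are genes, black ticks are group medians and the grey band runs from the 5th to the 95th percentile of all 13737 genes kept. Sco2, at -0.56 and -1.34, lies left of the band in both panels, and the group medians lie within it.

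The Sco2 locus is compact. In the RefSeq gene table the Sco2 gene model overlaps that of Tymp (thymidine phosphorylase) over 2261 of its 2262 bases, and shares 1221 bases with Ncaph2, a condensin subunit. Probe positions were not used here, so a contribution of these genes to the Sco2 signal was not tested. Tymp was dim on the 12 arrays, at 2.85 to 3.55, Ncaph2 read 3.10 to 4.45 and Odf3b, the next gene, 3.27 to 3.92. With Iso, Ncaph2 differed by 0.09 (SE 0.19) in WT and -0.60 (SE 0.19) in DKO, the latter -0.45 without untreated DKO array 3. Syce3, a meiotic protein gene nearby, differed by 0.63 (SE 0.25) and 0.67 (SE 0.25), the latter 0.39 without that array. Of the 5 neighbours kept limma called 0.

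Genes with a pattern like that of Sco2 were ranked by Pearson correlation over the 12 arrays. These arrays share the 4 groups, so the values are a description. Genes with a provisional symbol (Rik, Gm, LOC and similar names) were left out of the 5 highest and 3 lowest named here. The 5 highest were Stard5 (0.960), a sterol transfer protein, Spr (0.958), sepiapterin reductase, Mrpl2 (0.956) of the mitochondrial ribosome, Eri3 (0.955), an exonuclease, and Cdk5rap3 (0.948). The 3 lowest were the histone methyltransferase Setd2 (-0.952), Khdc4 (-0.934) and titin, Ttn (-0.927). Among the members, Cox10 (0.857) and Coa3 (0.837) were most like Sco2, with 105 and 163 of the 13737 genes ranked above them, Sco2 included. Cox17 (-0.745), Cox15 (-0.549) and Cox11 (-0.453) had negative values, and Surf1 (0.411) and Sco1 (0.155) lay between. Untreated DKO array 3 had the highest Sco2 reading (10.23) and the lowest Cox11 (4.95) and Cox15 (3.59) readings. Correlations without it were not worked out, so the sign for Cox11 and Cox15 may rest on that array.

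Genes like and unlike Sco2 differed in genomic span, looked at after these values were seen. The 100 genes most like Sco2 had a median span of 7036 bases, the 100 least like it 50611.5 bases, and all genes 18269.5 bases. Both sets of 100 leave out genes with a provisional symbol, whereas the value for all genes includes them. Sco2 itself spans 2262 bases, Coa3 979 and Cox10 116846. Over all genes, the median Iso difference in DKO went from -0.09 for genes up to 3000 bases to 0.12 for those over 100000 bases, or from -0.04 to 0.09 without untreated DKO array 3; in WT it was 0.00065 and 0.02. On each array, the median of the short genes minus that of the long genes, each gene taken as its deviation from its own mean, was 0.09, -0.02 and 0.29 for untreated DKO. The Iso-treated DKO arrays had -0.12, -0.14 and -0.05. In WT it was 0.01, -0.01 and -0.03 without Iso and -0.04, -0.10 and 0.06 with Iso. The gap thus separated the DKO groups and not the WT groups. The part of the gap in the Sco2 differences was not tested in either genotype.

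**Figure D4:**
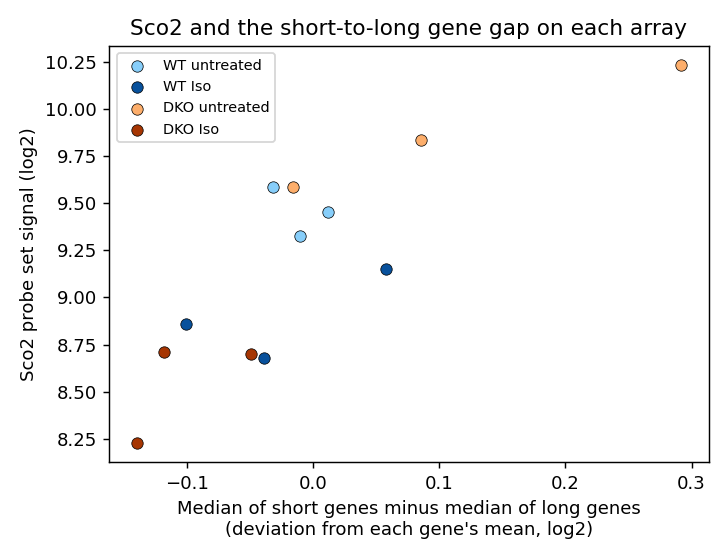
Sco2 signal (log2, vertical axis) against the gap between short genes (up to 3000 bases) and long genes (over 100000 bases) on each of the 12 arrays (horizontal axis, log2), coloured by group. Untreated DKO array 3 is the rightmost and highest point, at 0.29 and 10.23. The WT groups overlap along the horizontal axis only, and the DKO groups along neither axis.

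Markers of other cells moved in part with the groups. The 7 macrophage and leukocyte markers measured averaged 5.00 to 5.05 in untreated DKO and 4.47 to 4.58 in Iso-treated DKO, and of the 6 kept all lay below 0 in DKO (median -0.62) and 5 in WT (median -0.08). Ventricular myocyte markers averaged 12.39 to 12.50 in untreated DKO and 12.54 to 12.70 with Iso, and 12.37 to 12.47 and 12.55 to 12.60 in WT. The 8 endothelial markers averaged 7.20 to 7.52 in untreated DKO and 7.20 to 7.36 with Iso, the 7 fibroblast markers 4.71 to 4.81 and 4.69 to 4.85, and the 6 smooth muscle and pericyte markers 5.11 to 5.26 and 5.11 to 5.17. The 4 atrial markers averaged 6.41 to 6.81 and 6.25 to 6.49 in DKO, with a median Iso difference of -0.36. In WT they averaged 6.32 to 7.74 and 6.30 to 8.57, with a median Iso difference of 1.03. In WT the non-myocyte lists overlapped between treatments, at 6.91 to 7.25 and 7.04 to 7.46 for endothelial and 4.83 to 4.99 and 4.72 to 4.98 for macrophage and leukocyte markers. All 8 endothelial markers lay above 0 with Iso in WT (median 0.20), and 6 of 8 below 0 in DKO (median -0.16). The part of these shifts in the values of Sco2, Cox10 and Coa3 was not tested.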

How the data were processed

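Affymetrix arrays of 12 samples were analysed, from the authors' deposited table. Per the submitters' processing notes the arrays were summarised with RMA, which gives log2 values; neither the RMA version nor a genome build is stated there. The 12 columns share nearly the same quantiles, so further scaling changes little. Of 25428 probe sets, 24704 genes with a symbol resulted, and 723 probe sets had none. Genes were kept if above the array median, taken over these genes, on at least 3 of 12 arrays, which left 13737.

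With limma 3.58.1 in R 4.3.3, group means were fitted over all 12 arrays. Benjamini-Hochberg adjustment ran over all 13737 genes, and the threshold for a call was 0.05 on the adjusted p. The calls were tested on simulated data for the genotype averaged over treatments: of 200 among 13737 genes shifted by 2 log2 units, 199 were called, with 12 others; smaller shifts were not simulated. The p-values rest on the spread between arrays within groups, pooled over the 4 groups and moderated by limma. The fit has no term for the mouse, so the genotype average counts the untreated and treated arrays of a mouse as independent. The labels pair untreated and treated cells by mouse; deviations of the paired arrays from their group means correlated at -0.0623 to 0.130 across genes. Named were the 8 members whatever their result, the 2 genes of each list with the largest Iso difference in DKO, passing genes, 3 neighbours, the 2 targeted genes, and the 5 genes most and the 3 least like Sco2. Genes separated on all arrays were named after their values were seen. The members and lists were chosen with earlier results of these data known.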

Additional observations from a re-analysis of the deposited data

How the results depend on the processing

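No member passed a genotype comparison under any alternative run: 0 were called without a filter, with a filter at the 25th percentile, with median centring, with quantile normalization, with trend and robust settings, with only the arrays compared, and on leaving out any 1 array, where the count ranged from 0 to 0 and the lowest limma adjusted p was 0.0712, for Coa3 without untreated DKO array 3. With the mouse as a random replicate block (consensus correlation 0.0333) 0 members were called as well, and the Sco2 differences with Iso were -0.56 in WT and -1.34 in DKO. With 1 mean per mouse, which gives the genotype average only, 0 were called. The block changed no call of a member; over all genes it moved the calls from 3 to 5 for Iso in WT, from 7 to 9 for Iso in DKO and from 75 to 67 for the genotype average, which was 40 with 1 mean per mouse. With only the arrays compared, calls over all genes went from 28 to 2 without Iso and from 42 to 77 with Iso, and without a filter from 28 to 18 without Iso. Leaving out 1 array gave 2 to 8 calls for Iso in WT, 0 to 605 for Iso in DKO, 2 to 16 for the difference between them, and 7 to 180, 10 to 163 and 31 to 244 for the genotype without Iso, with Iso and averaged. On leaving out each array in turn, the Sco2 difference ranged from -0.69 to -0.45 in WT, from -1.49 to -1.16 in DKO, and from -0.93 to -0.61 for DKO minus WT. The count of members lower on all treated arrays ranged from 3 to 3. Leaving out an array could not lower this count, so it is no check on the pattern.

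Genotype differences near 0 changed sign on leaving out 1 array, and none of them was called. Averaged over treatments, ranges were -0.0489 to 0.118 for Sco2, -0.0848 to 0.0145 for Cox10, -0.444 to 0.030 for Cox11 and -0.116 to 0.00237 for Surf1. Without Iso they were -0.0889 to 0.0846 for Cox10, -0.484 to 0.0802 for Cox15, -0.101 to 0.219 for Sco1 and -0.0333 to 0.127 for Surf1. With Iso they were -0.179 to 0.0199 for Cox10 and -0.262 to 0.0649 for Cox15. With 3 arrays per group, a difference that was not called is not shown to be absent. The smallest difference that could be called was not worked out.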
